A study of Mus musculus with 2 samples.

Results

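Mir126a, Mir126b, Mir221 and Mir222 are 4 microRNA (miRNA) genes known from blood vessel endothelium. They were picked by gene symbol out of 2202 miRNA genes counted in mouse adrenal gland. The gland came from male B6CASTF1/J mice aged 10 days, a first-generation cross of C57BL/6 with CAST/EiJ, with no treatment or introduced allele named in the labels. There was 1 group of 2 libraries of short fragments (under 30 bases), numbered as biological replicates 1 and 2. With no second condition, the values below are levels, their spread over the 2 libraries, and differences between these 2 libraries.

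A miRNA is cut from a hairpin transcript and guides the silencing complex to messenger RNAs, which it recognises mainly through its seed, bases 2 to 8. miR-126 is the best known endothelial miRNA. It is made from an intron of Egfl7, which encodes a protein secreted by endothelial cells, and it is known to repress Spred1 and Pik3r2, brakes on signalling by vascular endothelial growth factor. miR-221 and miR-222 come from a shared X-linked precursor and are known to repress Cdkn1b, an inhibitor of the cell cycle, and Kit, a receptor tyrosine kinase. They are found in endothelium, smooth muscle and many dividing cells, so they are not specific to vessels. The adrenal cortex is crossed by a dense bed of sinusoidal capillaries that carry its steroid hormones into the blood.

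The mature sequences, from RefSeq on GRCm38.p6, show which of the printed arms have a seed in common. All 4 genes were found in that table, with 6 mature sequences between them and no entry for miR-126a-5p and miR-222-5p. Capitals mark the seed.
miR-126a-3p: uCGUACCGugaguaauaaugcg
miR-126b-3p: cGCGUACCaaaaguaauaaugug
miR-126b-5p: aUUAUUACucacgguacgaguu
miR-221-3p: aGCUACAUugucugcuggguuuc
miR-222-3p: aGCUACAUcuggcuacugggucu
miR-221-5p: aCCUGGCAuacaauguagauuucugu
miR-221-3p and miR-222-3p had the same seed and the same first 8 bases, and 11 of their 23 positions were identical. The other mature sequence in the table with this seed was miR-1928, whose gene Mir1928 had no reads in either library (0 and 0). The seed of miR-126a-3p was carried by no other of 1738 mature sequences in the table. miR-126a-3p and miR-126b-3p had different seeds, though both seeds hold the bases CGUACC at shifted positions. They also shared a run of 10 bases outside the seed.

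Mir126a (ENSMUSG00000065540.1) lies on mm10 chromosome 2 from 26591357 to 26591429 on the plus strand. It is inside Egfl7 on the same strand, in an intron of 8 annotated transcripts and in an exon of 1 transcript, annotated as a retained intron. It also lies in an intron of 1 transcript of another gene on that strand, Gm20532. Mir126b (ENSMUSG00000105799.1) lies within Mir126a on the minus strand, from 26591363 to 26591420. The hairpins are printed because their overlap decides how reads can be counted, with the mature sequences listed above in capitals and all other bases, the unlisted arms included, in lower case.
Mir126a hairpin: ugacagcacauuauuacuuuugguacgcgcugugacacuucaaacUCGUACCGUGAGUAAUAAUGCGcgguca
Mir126b hairpin: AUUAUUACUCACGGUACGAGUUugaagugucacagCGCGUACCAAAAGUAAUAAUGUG
All 58 bases of the Mir126b hairpin are the reverse complement of bases 7 to 64 of the Mir126a hairpin. Of the 22 bases of miR-126a-3p, 19 lie inside Mir126b. A read from this place can therefore be given to a gene only through its strand.

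Mir221 (ENSMUSG00000065422.1) lies on chromosome X from 19146294 to 19146388 and Mir222 (ENSMUSG00000065471.1) from 19146893 to 19146971, both on the minus strand and 504 bases apart. Their hairpins show where the shared seed sits.
Mir221 hairpin: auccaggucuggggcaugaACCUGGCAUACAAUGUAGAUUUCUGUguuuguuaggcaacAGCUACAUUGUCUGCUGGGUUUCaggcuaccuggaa
Mir222 hairpin: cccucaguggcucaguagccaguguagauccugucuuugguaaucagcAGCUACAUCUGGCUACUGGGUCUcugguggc
Neither gene lies inside another annotated gene, and the nearest other gene is the noncoding Gm14636 on the same strand, 10009 bases from Mir222. Neither hairpin shares a run of 18 bases, on either strand, with another of the 1005 hairpins in the table. Mir126a and Mir126b share such runs with each other alone, on opposite strands. Counts are per gene, so reads of the 5p and the 3p arm of a hairpin were added together.

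Own-strand reads assigned to miRNA genes numbered 2843734 in replicate 1 and 3080062 in replicate 2, and CPM below are counts per 1000000 of these. Reads mapping to several places, 27.5% and 25.9% of the reads in the files, were not assigned. The level of 1 CPM was reached in both libraries by 20% of all 2202 genes and by all 4 genes described here. Mir375, a miRNA of neuroendocrine cells such as the chromaffin cells of the adrenal medulla, had 34144 and 34383 CPM. It led a list of 8 neuroendocrine genes, of which 7 were matched by name and 5 reached 1 CPM in both libraries. The other 4 of these were lower in replicate 2 by the exact binomial test described below, as the 4 genes described here were. All 5 averaged 100 counts or more. Over all genes of that depth 83.3% were called and 44% were higher in replicate 1, so such calls are common. Mir7b had 5272 and 3120 CPM, a log2 ratio of replicate 2 over replicate 1 of -0.76, and the ratio was -0.67 for Mir7-1, -1.19 for Mir7-2 and -0.74 for Mir137. The hairpins of Mir7-1 and Mir7-2 hold stretches of 18 bases also found elsewhere among the hairpins, which makes these levels uncertain. The part of neuroendocrine cells in the levels below was not tested. The hepatocyte miRNA Mir122 had 29424 and 97850 CPM, and the skeletal muscle miRNA Mir206 had 919 and 3305 CPM, so miRNAs known from other tissues were counted too, at higher CPM in replicate 2. In whole tissue, a lower level cannot be divided into fewer cells of a type and less RNA per cell.

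Mir126a had 239620 reads on its own strand in the first library and 139372 in the second, or 84262 and 45250 CPM. It was the highest of all genes in replicate 1 and the fifth in replicate 2 (rank 5), and by its mean of 64756 ± 27586 CPM (SD, n = 2) it ranked 3. Mir126a alone took 8.43% of the assigned reads in replicate 1 and 4.52% in replicate 2. Counting error was small beside this gap, with exact 95% binomial intervals from 83940 to 84586 and from 45018 to 45482 CPM. The neighbours in rank were Mirlet7g at 78310 and 65841 CPM and Mir122 at 29424 and 97850 CPM. The ranges of both overlapped that of Mir126a, so the order of these 3 genes is not settled by 2 libraries. Reads mapping to several places were not assigned. Genes sharing sequence with others, Mirlet7g among them, may therefore be ranked too low beside Mir126a.

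Mir221 had 1668 and 1578 reads, or 587 and 512 CPM, with intervals of 559 to 615 and 487 to 538 CPM. Its mean was 549 ± 52 CPM (SD, n = 2), at rank 118. Mir222, its partner with the same seed, had 399 and 193 reads, or 140 and 62.7 CPM, and a mean of 101 ± 55 CPM at rank 206. The 2 libraries lay close together for Mir221 and far apart for Mir222. The genes next in rank to Mir221 were Mir503 at 550 ± 154 CPM and the lymphocyte miRNA Mir150 at 539 ± 350 CPM, and those next to Mir222 were Mir3068 at 114 and 90.3 CPM and the epithelial Mir200b at 39.4 and 161 CPM. Each of these 4 overlapped its neighbour in range.

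Mir126b had 40 and 19 reads on its own strand, or 14.1 and 6.17 CPM, with intervals of 10.0 to 19.2 and 3.71 to 9.63 CPM. Its mean was 10.1 ± 5.6 CPM at rank 310, next to Mir302a at 10.1 ± 6.5 CPM and Mir5122 at 10.0 ± 4.2 CPM. Both neighbours overlapped it in range. Both values lay above what a count of 0 (3 counts) would have allowed, 1.05 and 0.974 CPM in the same order. Intervals and limits cover counting error only, since the files record no molecular identifiers.

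The order Mir126a, Mir221, Mir222, Mir126b was the same in both libraries, and no 2 of the 4 genes overlapped in CPM range. Mir126a had 144 times the reads of Mir221 in replicate 1 and 88.3 times in replicate 2. Against Mir221 and Mir222 summed, which had 727 and 575 CPM, Mir126a had 116 and 78.7 times the reads. Each read is 1 short fragment, so CPM were not divided by length. Divided by hairpin length, the means were 88707, 578, 128 and 17.4 CPM per 100 bases for Mir126a, Mir221, Mir222 and Mir126b, in the same order. Together the 4 genes held 8.50% of the assigned reads in replicate 1 and 4.58% in replicate 2, nearly all of it Mir126a.

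**Figure D1:**
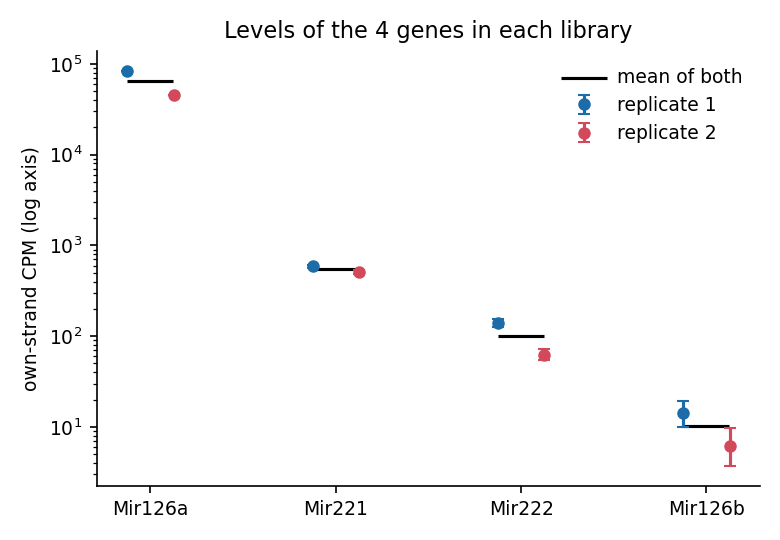
Own-strand CPM (log axis) of the 4 genes in replicate 1 (blue) and replicate 2 (red), with exact 95% binomial intervals as bars and the mean of both libraries as a black line. Mir126a lies between 45250 and 84262 CPM, Mir221 between 512 and 587, Mir222 between 62.7 and 140 and Mir126b between 6.17 and 14.1, and each gene is higher in replicate 1.

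The count of Mir126a depended on the use of strand. Without strand it was 16 reads in replicate 1 and 8 in replicate 2, a mean of 5.12 ± 2.83 CPM, and Mir126b had 0 and 0. The opposite-strand column of Mir126b held 239604 and 139364 reads, which is the own-strand count of Mir126a less those 16 and 8 reads. These few reads, 0.00668% and 0.00574% of the own-strand count, are what a count without strand left to Mir126a. In turn the opposite-strand column of Mir126a held 40 and 19 reads, the own-strand counts of Mir126b. Reads over this 1 locus made up 40.3% of all reads called ambiguous without strand in replicate 1 and 27.1% in replicate 2.

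Mir221 and Mir222, with no gene on the other strand, had equal counts with and without strand in both libraries and 0 opposite-strand reads. Their CPM without strand were higher, at 742 and 615 for Mir221 and 177 and 75.2 for Mir222, because the total they were divided by was smaller.

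On the 2 strands of the miR-126 locus together, Mir126b held 0.0167% of 239660 reads in replicate 1 (exact 95% binomial interval 0.0119 to 0.0227) and 0.0136% of 139391 reads in replicate 2 (0.00821 to 0.0213). The intervals overlap, while the reads of the whole locus were far apart in the 2 libraries. Where the few reads counted for Mir126b came from was not tested. Of 32 pairs of miRNA genes on opposite strands, 21 reached 100 reads in each library. In 12 of these 21 the weaker strand was at 0 throughout, and the mean share of Mir126b was above that of 14 weaker strands. By summed reads the miR-126 pair was second (rank 2) among the 32, below Mir378a with Gm25301.

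**Figure D2:**
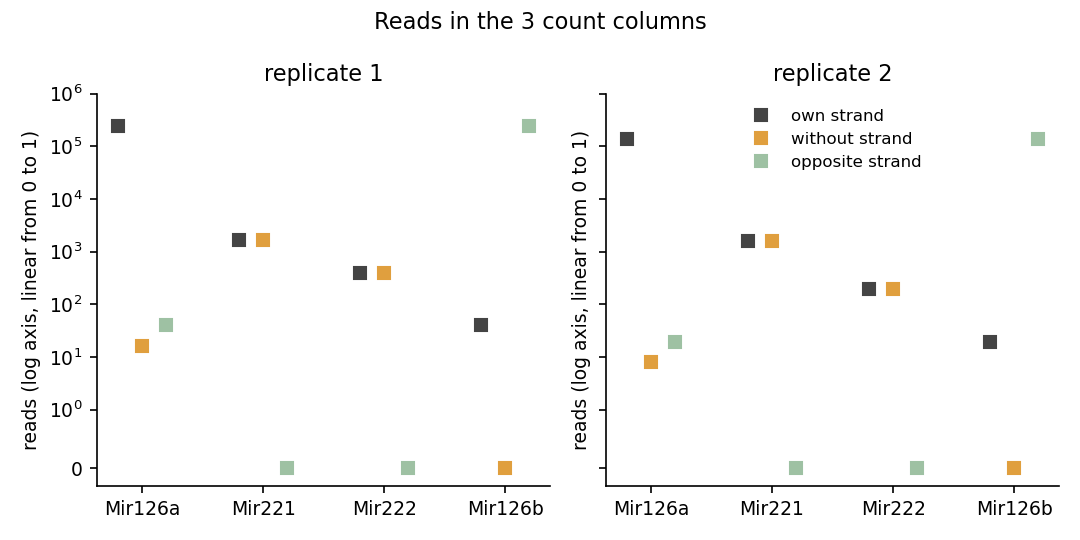
Reads of the 4 genes in the own-strand (black), unstranded (orange) and opposite-strand (green) columns of each library, on a log axis that is linear from 0 to 1. Of the own-strand reads of Mir126a (239620 and 139372), 239604 and 139364 reappear in the opposite-strand column of Mir126b. The other 16 and 8 are left in the unstranded column, while Mir221 and Mir222 have the same count with and without strand.

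All 4 genes were lower in replicate 2. On the log2 scale, replicate 2 over replicate 1 with 0.5 counts added, the difference was -0.90 for Mir126a, -1.17 for Mir126b, -0.20 for Mir221 and -1.16 for Mir222. In CPM, replicate 1 was 1.86 times replicate 2 for Mir126a, 2.28 times for Mir126b, 1.14 times for Mir221 and 2.24 times for Mir222. By an exact two-sided binomial test, adjusted after Benjamini and Hochberg over 444 genes, the adjusted p was 0.0051 for Mir126b, 0.00027 for Mir221 and 8.1e-21 for Mir222. For Mir126a it was too small to be computed as a number above 0. This test compares 2 libraries against counting error, not conditions, and most genes passed it: 59% of 444 genes differed, 30.4% higher in replicate 1 and 28.6% higher in replicate 2. That balance depended on the scaling. From 135 against 127 genes it turned to 109 against 143 with Mir122 left out and 125 against 130 with DESeq2 size factors. It did not turn with TMM factors (145 against 117) or without strand (128 against 110). Among the 257 genes averaging 100 counts or more, 83.3% differed, 44% higher in replicate 1 and 39.3% higher in replicate 2. A call of this kind is thus what most genes gave, and it sets none of the 4 genes apart.

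The sizes of the differences separated the genes further. Over those 257 genes the median log2 ratio was -0.02, the quartiles were -0.48 and 0.41, and the median absolute ratio was 0.46. Mir221 lay inside the quartiles, and 197 of the 257 genes had a larger absolute ratio. Mir126a and Mir222 lay below the lower quartile, with 30 and 18 genes lower still. A negative binomial exact test in edgeR allows for a coefficient of variation of 0.391 between the libraries. In it the adjusted p was 1 for each of the 4 genes and 2 genes (0.45%), Mir185 and Mir153, were called. With unadjusted p the same test gave 0.27 for Mir126a, 0.20 for Mir126b, 0.81 for Mir221 and 0.16 for Mir222, and 25 of the 444 genes had an unadjusted p under 0.05. Because this spread comes from the very libraries compared, the test is circular. With Mir122 left out of the totals, Mir221 was no longer called (log2 ratio -0.090, adjusted p = 0.12 in the exact binomial test).

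**Figure D3:**
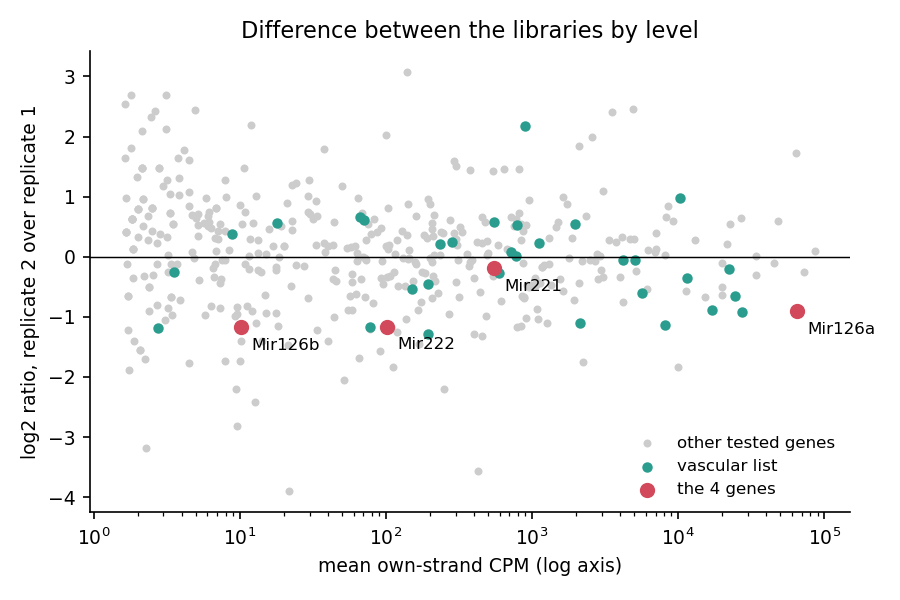
Log2 ratio of replicate 2 over replicate 1 against mean own-strand CPM (log axis) for 444 tested genes (grey), the vascular list (green) and the 4 genes (red). Mir126a at -0.90, Mir126b at -1.17 and Mir222 at -1.16 lie well below 0, and Mir221 at -0.20 lies near it.

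Mir221 and Mir222 did not differ between the libraries by the same factor. Mir221 held 80.7% of the reads of the 2 genes in replicate 1 (exact 95% binomial interval 78.9 to 82.4) and 89.1% in replicate 2 (87.6 to 90.5), a mean of 84.9% ± 5.9 (SD, n = 2). There were 4.18 reads of Mir221 for each read of Mir222 in replicate 1 and 8.18 in replicate 2. The odds ratio between libraries was 1.96 (95% interval 1.62 to 2.37, two-sided Fisher's exact test, p = 4.1e-13), again against counting error only. The sum of both genes, which share a seed, differed less than Mir222 alone, at 727 and 575 CPM.

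Such shifts were common among neighbouring miRNA genes. Of 70 pairs on the same strand within 10000 bases, with at least 100 reads of each gene in each library, 85.7% changed their ratio by Fisher's exact test at an adjusted p under 0.05. The log2 ratio of Mir221 to Mir222 changed by 0.97, against a median absolute change of 0.60 with quartiles of 0.36 and 1.09, and 19 pairs changed more. Mir221 and Mir222 were also not unusual in how unequal they were: their mean log2 ratio was 2.55, the median over pairs was 2.01, and 26 pairs were more unequal.

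**Figure D4:**
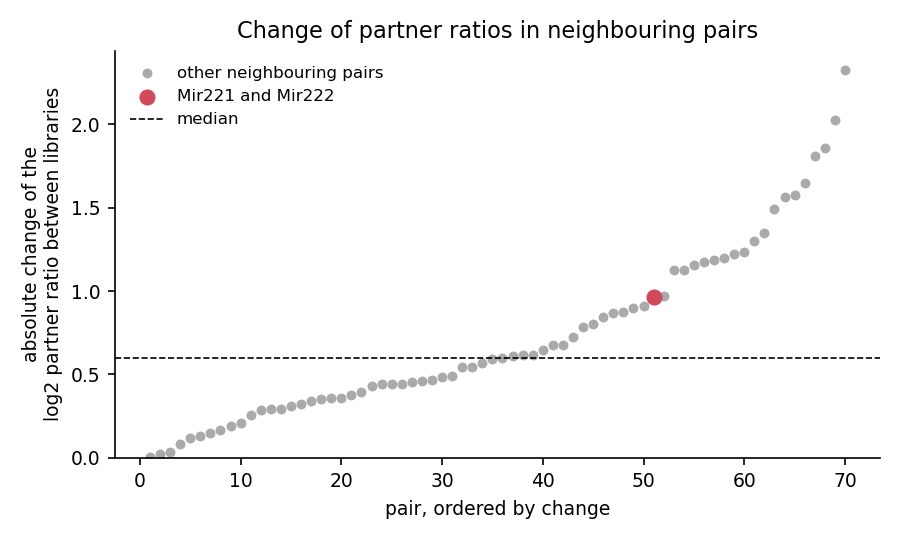
Absolute change between libraries of the log2 ratio of 2 neighbouring miRNA genes, for 70 same-strand pairs in order of size, with the median as a dashed line. Mir221 and Mir222 (red), at 0.97, lie above the median of 0.60 and below 19 other pairs.

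The genes most alike in level were found by the distance in log2(CPM + 1) over the 2 libraries among 257 genes. This describes 2 points per gene and nothing about shared control. The nearest to Mir126a were Mirlet7g (distance 0.55), Mirlet7i (0.84) and Mir378a (0.99). None of the 3 was close, and Mir378a at 83902 and 90136 CPM did not share the lower value of replicate 2. The hairpins of Mirlet7g and Mirlet7i share runs of 18 bases with others, so their levels are uncertain.

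Nearest to Mir221 were Mir300 (0.10) and Mir330 (0.27) with Mir18 (0.15), a gene of the miR-17-92 cluster, between them. Nearest to Mir222 were Mir449a (0.11), a miRNA of multiciliated cells, Mir539 (0.30) and Mir32 (0.45). Mir449a had 149 and 65.9 CPM, within 10 CPM of Mir222 in both libraries.

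A list of 31 other miRNAs linked to endothelium and vessel growth gives the setting. All 31 had at least 1 CPM in both libraries, and none had a higher mean than Mir126a, while 19 were above Mir221 and 24 above Mir222. The next highest were Mir322, a partner of Mir503 induced by low oxygen, at 27157 ± 11740 CPM (SD, n = 2), Mir10a at 24671 ± 7723 CPM, Mir23b at 22143 ± 2252 CPM and Mir23a at 17126 ± 7216 CPM. Mir126a thus had 2.38 times the mean of the highest gene of the list. In the exact binomial test 15 of the 31 were higher in replicate 1 and 10 in replicate 2. All 25 of these calls fell among the 27 listed genes averaging 100 counts or more, of which 55.6% were higher in replicate 1 and 37.0% in replicate 2, against 44% and 39.3% over all genes of that depth. Over all 31 listed genes the median log2 ratio was -0.06, against 0.07 over all 444 tested genes.

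Members of the list differed in both directions. The list's 4 leading genes were all lower in replicate 2, by -0.91 for Mir322, -0.65 for Mir10a, -0.21 for Mir23b and -0.89 for Mir23a on the log2 scale. Mir21a, a broadly expressed miRNA, was higher in replicate 2 at 0.98, and Mir31 at 2.17. Of the 31 hairpins, 15 share a run of 18 bases with another, Mir23a and Mir23b among them, so their levels are uncertain.

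**Figure D5:**
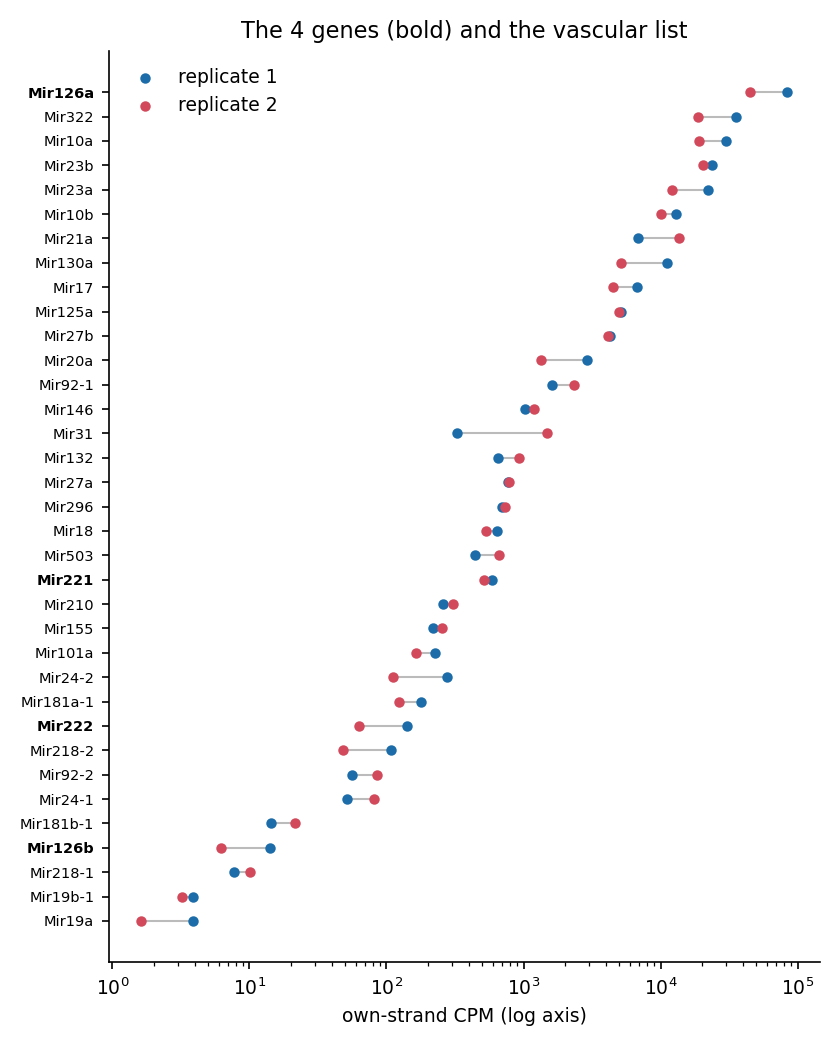
Own-strand CPM (log axis) of the 4 genes (bold names) and the 31 genes of the vascular list in replicate 1 (blue) and replicate 2 (red), ordered by mean, with a grey line joining the 2 libraries. Mir126a is at the top above Mir322 at 27157 CPM, Mir221 and Mir222 lie in the lower part, and the list holds genes higher in either library.

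miR-126 is also known from platelets and blood stem cells, and miR-221 and miR-222 from red cell precursors, so markers of blood were set beside them. Of 5 erythroid genes, 3 were tested: Mir451a (567 and 234 CPM) and Mir144 (136 and 45.8 CPM) were lower in replicate 2, as Mir126a was, and Mir486 (17.2 and 42.2 CPM) was higher. Mir3107, on the other strand from Mir486, had 0.703 and 2.27 CPM and Mir451b was at 0. Their summed level, mostly Mir451a, was 721 and 324 CPM. All 4 leukocyte genes were detected, with summed levels of 1044 and 1547 CPM. Mir150 led them at 292 and 786 CPM, and Mir223, of myeloid cells and platelets, had 144 and 141 CPM. Of the 4 leukocyte genes, 2 were called higher in replicate 2 and 2 were not called. Over all 444 tested genes, 30.4% were called higher in replicate 1 and 28.6% in replicate 2. Among genes averaging 100 counts or more, as all 4 leukocyte genes did, the shares were 44% and 39.3%. The part of blood cells in the levels of the 4 genes was not tested.

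Markers of the vessel wall did not move in 1 direction. Of 3 mural genes, known from smooth muscle, Mir143 had 37387 and 30258 CPM (log2 ratio -0.31), Mir145a had 1203 and 1697 CPM (0.50), and Mir145b was at 0. Their summed level was 38590 and 31955 CPM. The 2 genes of other tissues that were high, Mir122 (log2 ratio 1.73) and Mir206 (1.85), were higher in replicate 2. Striated muscle genes summed to 929 and 3337 CPM, nearly all of it Mir206, with 4 of 9 detected. Of 4 tested, 3 were called higher in replicate 2, against 28.6% of all 444 tested genes. These were Mir206, Mir499 and Mir133b, and of them only Mir206 averaged 100 counts or more. Mir133b had 2 reads in replicate 1, or 0.703 CPM, below the detection level of 1 CPM. Mir133a-2 was at 0, where reads mapping to several places were not assigned. The part of other tissues in the lower CPM of the 4 genes in replicate 2 was not tested. Leaving Mir122 out of the totals only rescales the counts. The log2 ratio was then -0.79 for Mir126a, -1.06 for Mir126b, -0.090 for Mir221 and -1.06 for Mir222.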

How the data were processed

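Short RNA of 2 adrenal gland libraries was sequenced. The deposited values are the authors' raw counts for each miRNA gene. Build mm10 and GENCODE M21 were used, per the file headers and descriptions. Which aligner and counter were used is not given in the sources used here. In each file there are counts without strand (column 2), on the own strand (column 3) and on the opposite strand (column 4), as read from their values. The own strand was the main count, because Mir126a and Mir126b overlap. Rows of reads unmapped, multiply mapped, outside genes or ambiguous were left out of all totals, and without strand made up 26.4%, 27.5%, 8.22% and 7.93% of the reads in replicate 1 and 32.0%, 25.9%, 7.54% and 5.77% in replicate 2. Reads of both strain alleles were counted on 1 reference, and strain differences were not analysed here.

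CPM are counts per 1000000 own-strand reads assigned to genes. Genes reaching 10 counts summed over the libraries entered an exact binomial test (two-sided, given both totals) with Benjamini-Hochberg adjustment at 0.05. Labels number the libraries as biological replicates, but whether glands were pooled is not stated. The genes and lists were chosen with earlier results of these data known. Named genes were the 4 genes, their rank neighbours, the 3 nearest in level, the 4 highest of the vascular list and the leading markers. Mir21a, Mir31 and the other list genes named beside them were chosen after their values were seen. Alternatives were TMM factors, DESeq2 size factors, counts without strand, other filters and pseudocounts, Mir122 left out, all reads as the total, and the exact negative binomial test of edgeR. The binomial test was run on simulated counts. The alternatives for the Mir126b log2 ratio were added after seeing the data. Software was Python 3.11.15 with pandas 2.3.3 and scipy 1.17.1, and R 4.3.3 with DESeq2 1.42.0 and edgeR 4.0.16.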

Additional observations from a re-analysis of the deposited data

How the results depend on the processing

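Of 79 alternatives, 63 left a value within the spread between libraries, on its side of the threshold or, for counts, within 1.5 times. No log2 ratio of the 4 genes changed sign under those run, where Mir126b, added after seeing the data, had no value without strand. Of the 63, 14 are single libraries, which lie within the spread by construction. The pseudocount alternatives kept the main adjusted p, so only their sign could have changed. The edgeR alternative kept the main log2 ratios, so their sign could not change. The Mir221 share without strand rests on the same counts as with strand and could not move. Single libraries gave 45250 to 84262 CPM for Mir126a, 6.17 to 14.1 for Mir126b, 512 to 587 for Mir221, 62.7 to 140 for Mir222, 80.7% to 89.1% for the Mir221 share, 0.0136% to 0.0167% for the weaker strand and 4.58% to 8.50% for the share of the 4 genes. Without strand, Mir126a had 5.12 CPM, Mir126b 0 CPM, a weaker strand of 0% and Mir221 678 CPM, the 4 genes held 0.0810%, and the log2 ratio of Mir126a was -1.15 (adjusted p = 0.11, exact binomial test, from 16 and 8 reads). Per 1000000 of all reads in the file, levels were 23791 for Mir126a, 3.73 for Mir126b, 199.7 for Mir221 and 37.4 for Mir222, a larger denominator by construction. Mir221 was not called with Mir122 left out (-0.090), where the median of all tested genes moved from 0.07 to 0.17. With TMM factors or DESeq2 size factors it was (-0.26 and -0.17). The exact negative binomial test of edgeR called 2 genes against 262 and none of Mir126a, Mir126b, Mir221 and Mir222. The log2 ratios set beside it were the main ones, -0.90, -1.17, -0.20 and -1.16 in this order. No paired analysis was possible because there is 1 group. Mir126b, with 19 reads in replicate 2, is limited by depth.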
